A study of Mus musculus with 10 samples.

Results

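Disease-associated microglia are a state that microglia, the resident macrophages of the nervous system, take up around dying neurons, amyloid and damaged myelin, and 10 of its marker genes were followed here in the spinal cord. The 10 genes are *Trem2*, *Tyrobp*, *Cst7*, *Itgax*, *Clec7a*, *Axl*, *Lpl*, *Spp1*, *Gpnmb* and *Csf1*. They were taken by their symbols, as known markers of the state, and all 10 were found among the 25232 genes of the deposited table. RNA was sequenced from the spinal cord of 10 female mice, of the strain labelled C57BL/6, at 90 days of age, 5 of them wild type and 5 carrying the SOD1 G93A transgene. The transgene is a human *SOD1* gene with a mutation of familial amyotrophic lateral sclerosis, present in many copies, and the wild type mice were littermates. According to the methods the lumbar region was dissected, whereas the labels give the spinal cord.

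The table of the deposit holds 1 level for each gene, the base mean, which is the count divided by size factors and averaged by the authors over all 10 libraries. Its other columns hold the authors' comparison of the genotypes and were not used. The base mean pools wild type and SOD1 G93A mice, so the levels below are those of the marker genes in the whole set of mice, with no value for a mouse or a genotype, no spread between mice and no test. Which neighbours in an order of levels differ beyond the spread between mice was therefore not tested. The depth of each library is unknown, and the base means of all genes sum to 22158933. In bulk tissue, few cells with much RNA of a gene cannot be told apart from many cells with little.

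As background, the state is reached in steps. In the first, microglia lower their homeostatic genes and raise *Tyrobp* and genes of lysosomes and lipid handling. The second step depends on Trem2, a receptor for lipids and lipoproteins at the cell surface that signals through the adaptor Tyrobp and the kinase Syk, and it is marked by genes such as *Itgax*, *Clec7a*, *Axl*, *Lpl*, *Cst7*, *Spp1*, *Gpnmb* and *Csf1*. Several of these genes are not restricted to microglia. Motor neurons make *Spp1*, astrocytes and endothelial cells make *Axl*, neurons and glia make *Csf1*, and neurons and oligodendrocyte precursors make *Lpl*.

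All 10 marker genes had a base mean above 0, where 4259 genes of the table were listed at 0. The base mean, which is not corrected for gene length, was 3300 for *Spp1*, 2149 for *Axl* and 1580 for *Csf1*. These 3 genes made up 82.1% of the summed base mean of the marker genes, 8565, a share of the counts and not of the transcripts. *Tyrobp* had a base mean of 441, *Lpl* of 368, *Trem2* of 328 and *Gpnmb* of 183. That of *Clec7a* was 105, that of *Itgax* 78.3 and that of *Cst7* 32.5. The 10 genes together took 0.0387% of all base means.

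Long transcripts collect more reads than short ones, so the order of the genes is given per kilobase, the base mean divided by the length of all exons of the gene merged (GENCODE M21 on GRCm38). *Spp1* was at the top with 2002 per kilobase, 31.5 times the median of 63.5 over the 20360 genes above 0 that had a length. *Tyrobp* moved up to 662 per kilobase, since its merged exons span only 667 bases. *Axl* followed with 427 and *Csf1* with 299 per kilobase. Below a gap of 4.51 times came *Trem2* with 66.4, *Clec7a* with 39.8, *Lpl* with 35.1, *Cst7* with 32.9 and *Gpnmb* with 28.1 per kilobase. *Itgax* was the lowest of the 10 with 16.3 per kilobase. Among genes above 0, *Spp1* was at percentile 98.2, *Tyrobp* at 92.4, *Axl* at 87.2, *Csf1* at 81.3, *Trem2* at 50.8 and *Itgax* at 32.7. By merged exons 5 marker genes were above the median gene and 5 below. With the coding length and with the principal transcript 6 were above it, and with the longest transcript 5 were, *Lpl* among them in place of *Trem2*.

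**Figure D1:**
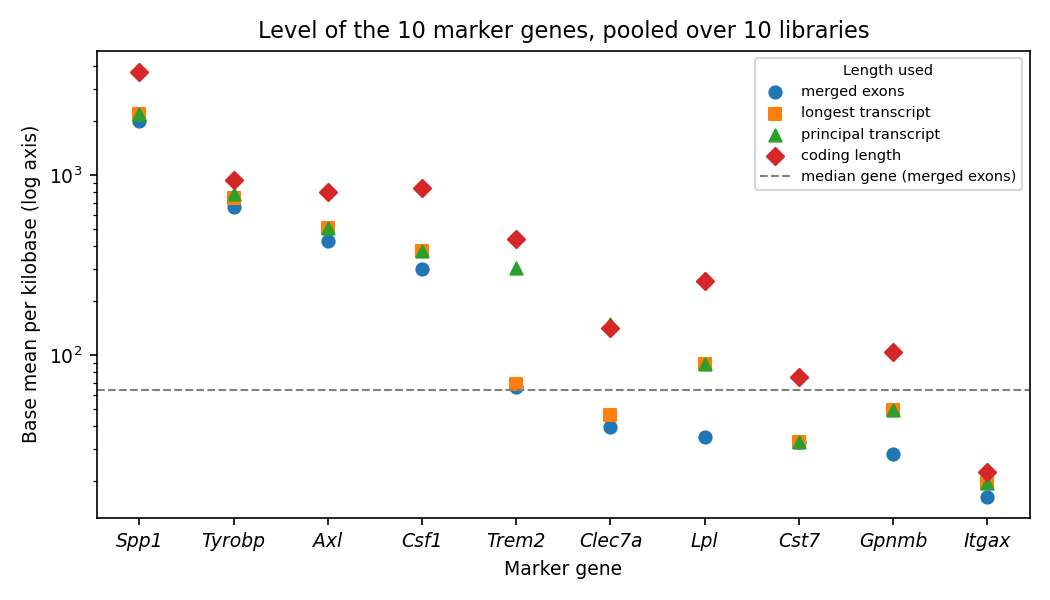
Base mean per kilobase (log axis) of each marker gene, pooled over 10 libraries, with a symbol for each of 4 lengths and a dashed line at the median gene of 63.5 by merged exons. *Spp1* is the highest and *Itgax* the lowest with each length, while *Trem2*, *Clec7a* and *Lpl* move most between lengths.

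The length mattered most for *Trem2*, *Clec7a* and *Lpl*. The merged exons of *Trem2* span 4946 bases because long transcript models are counted in, whereas its principal transcript has 1088 bases and its coding part 747. With the principal transcript, a length added after the data were seen, the level of *Trem2* was 302 per kilobase and that of *Clec7a* 149. *Lpl*, whose merged exons span 10478 bases, had 89.3 per kilobase of its principal transcript. Over the 4 lengths used (merged exons, longest transcript, principal transcript and coding length), *Trem2* ranged from 66.4 to 440 per kilobase, *Lpl* from 35.1 to 258 and *Itgax* from 16.3 to 22.3. Against the median gene of the same length, *Spp1* was 15.0 to 31.5 times higher, and *Trem2* lay between percentiles 46.9 and 69.7. The gap between *Csf1* and *Trem2* was not kept with each length. Their ratio was 4.51 by merged exons, 5.51 by longest transcript, 1.91 by coding length and 1.25 by principal transcript. *Spp1* came first, *Tyrobp* second and *Itgax* last with each of these 4 lengths.

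*Tyrobp* and *Trem2* encode the adaptor and the receptor of 1 signalling complex. The adaptor had the higher level with each length, by 9.97 times per kilobase of merged exons and by 2.59 times per kilobase of the principal transcripts. The adaptor also serves other receptors, of which *Siglech* reached 83.8, *Cd33* 18.5 and *Clec5a* 12.5 per kilobase of merged exons. *Trem1*, *Trem3* and *Sirpb1a* each stayed at 0.489 per kilobase or less. *Hcst*, which encodes the related adaptor Dap10, lies on chromosome 7 in opposite direction to *Tyrobp*, and 126 bases separate the ends of the genes. The level of *Hcst* was 6.26 per kilobase at a low base mean of 4.52. That of *Tyrobp* was 106 times as high by merged exons and between 48.8 and 106 times over the 4 lengths. Downstream of the complex, the kinase gene *Syk* had 13.7, the phospholipase gene *Plcg2* 44.6 and the phosphatase gene *Inpp5d*, an inhibitor of the pathway, 50.04 per kilobase. *Trem2* was above *Syk* and *Plcg2* with each of the 4 lengths, but not above *Inpp5d*, with a ratio between 0.891 and 4.18. *Apoe*, the gene of a lipoprotein that Trem2 binds and that astrocytes secrete, had 15399 per kilobase, 232 times the level of *Trem2* by merged exons, and between 77.5 and 341 times over the 4 lengths. Within the list of 10 genes of this signalling pathway, the highest was the adaptor gene *Grb2* with 1016 and the lowest *Hcst*.

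*Clec7a* encodes Dectin-1, a lectin for fungal glucans that signals through Syk and Card9. Its level of 39.8 per kilobase was close to that of *Card9*, 43.5, and their order changed with the length (ratio between 0.900 and 2.90). The relay genes *Bcl10* and *Malt1* had 66.1 and 15.2 per kilobase. Other Syk-coupled lectins were far lower, with *Clec4n* at 1.60 and *Clec4e* at 0.116 per kilobase. *Clec1a* and *Olr1*, lectin genes beside *Clec7a* on chromosome 6, had 6.68 and 1.05 per kilobase.

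Among the secreted ligands, *Spp1* encodes osteopontin, which binds Cd44 and integrins. The *Spp1* level per kilobase of merged exons exceeded that of each of the 7 receptor genes followed. The highest receptor gene was *Itgb1* with 602 per kilobase, and *Spp1* was 3.33 times above it. Next were *Itgb5* with 508 and *Itgav* with 232 per kilobase, whereas *Cd44* had 75.3 and *Itga4*, the lowest, 14.4. *Csf1* encodes a growth factor on which microglia depend, and its receptor gene *Csf1r* had 527 per kilobase. *Csf1* was at 0.568 times the level of *Csf1r* and at 1.48 times that of *Il34*, the second ligand of the same receptor, with 203 per kilobase. *Csf1* was above *Il34* and below *Csf1r* with each of the 4 lengths. *Csf2ra* and *Csf2rb*, which encode the subunits of the receptor for another growth factor, GM-CSF, had 206 and 7.53 per kilobase.

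*Axl* is a receptor tyrosine kinase that binds phosphatidylserine on dying cells through the bridging protein Gas6. Its level of 427 per kilobase was 3.38 times that of *Mertk*, 126, and close to that of *Tyro3*, 395, the third member of its family. Between *Axl* and *Tyro3* the order changed with the length, with a ratio from 0.820 to 1.08. The ligand gene *Gas6* had 1694 per kilobase, 3.97 times the level of *Axl*. *Pros1*, the gene of a bridging protein for other receptors of the family, had 150. *Axl* stayed above *Mertk* and below *Gas6* with each length.

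*Itgax* encodes CD11c, an integrin alpha subunit that pairs with the beta 2 subunit encoded by *Itgb2*. The partner gene *Itgb2* had 89.6 per kilobase, 5.50 times the level of *Itgax*. *Itgam*, which encodes the alpha subunit CD11b and lies beside *Itgax* on chromosome 7, had 151 per kilobase, 9.24 times the level of *Itgax*. The other alpha subunits that pair with beta 2 were lower than *Itgax*, at 3.11 per kilobase for *Itgal* and 2.67 for *Itgad*, the neighbour on the other side. The order *Itgam*, *Itgb2*, *Itgax* held with each length.

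*Lpl* encodes lipoprotein lipase, which releases fatty acids from triglyceride-rich lipoproteins. *Gpihbp1*, which anchors the lipase to capillary walls in muscle and fat, had 0.124 per kilobase at a base mean of 0.316, so that *Lpl* was 283 times as high (between 233 and 613 times over the 4 lengths). *Lmf1*, needed for the lipase to mature, had 36.1 per kilobase and *Lmf2* had 177. *Lpl* was at 0.970 times the level of *Lmf1* by merged exons and at 0.338 times by principal transcript. The inhibitor gene *Angptl4* had 19.3 per kilobase. The activator gene *Apoc2* was the lowest of the list, with 0.113 per kilobase at a base mean of 0.0918. The lipoprotein receptor gene *Vldlr* was the highest, with 200. The related lipase genes *Lipc* and *Lipg* had 0.959 and 1.24 per kilobase.

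*Cst7* encodes cystatin F, an inhibitor of cysteine proteases that acts inside endosomes and lysosomes. Its target protease gene *Ctsc* had 50.9 per kilobase, and *Ctsl* had 412. Over the 4 lengths *Ctsc* was 1.54 to 3.60 times and *Ctsl* 12.5 to 41.2 times the level of *Cst7*, both lowest by merged exons. The legumain gene *Lgmn* had 2314 per kilobase. *Cst3*, the gene of the secreted inhibitor cystatin C, reached 13197 per kilobase, 401 times the level of *Cst7*, and *Cst6* was the lowest of this list with 16.5. *Gpnmb* encodes a glycoprotein of lysosomal and surface membranes, and its relative *Pmel*, a pigment cell gene, had 16.6 per kilobase, below the 28.1 of *Gpnmb*. Of the lysosomal transcription factor genes, *Tfeb* had 103, *Tfe3* 96.0 and *Mitf* 61.8 per kilobase, while *Tfec* had 0.0877.

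**Figure D2:**
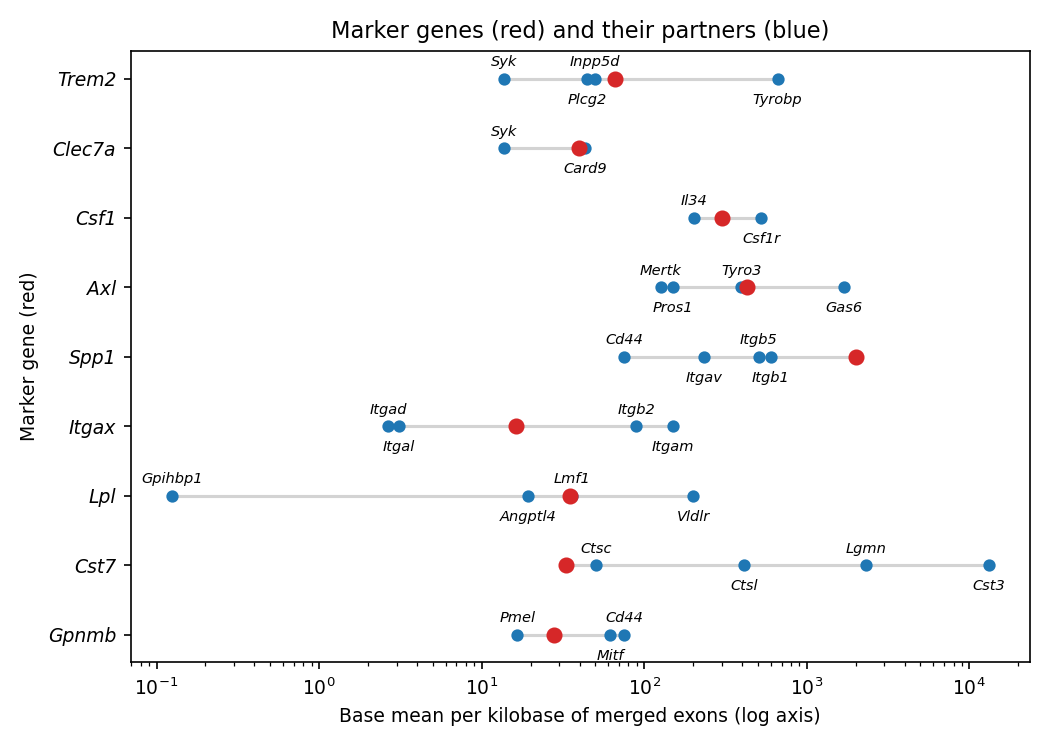
Base mean per kilobase of merged exons (log axis), pooled over 10 libraries, of the marker genes (red) and of their receptors, ligands, adaptors, targets or related genes (blue). There is 1 row for each marker gene except *Tyrobp*, which is drawn in blue in the row of *Trem2*. *Spp1* lies to the right of its receptor genes, *Cst7* to the left of its partners, and *Gpihbp1* at 0.124 is the lowest gene drawn.

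The marker genes were next set beside 12 markers of homeostatic microglia, the surveying state of healthy tissue. These 12 had a median of 218 per kilobase, with *Siglech* the lowest at 83.8, against a median of 53.1 for the 10 marker genes. By merged exons, 6 of the 10 (*Clec7a*, *Cst7*, *Gpnmb*, *Itgax*, *Lpl* and *Trem2*) lay below each of the 12 homeostatic markers. By principal transcripts 4 of the 10 did, since *Trem2* and *Clec7a* rose into their range. *Cst7*, *Gpnmb* and *Itgax* lay below each homeostatic marker with each of the 4 lengths. The purinergic receptor gene *P2ry12* had 229 per kilobase and the chemokine receptor gene *Cx3cr1* had 284. Over the 4 lengths *P2ry12* was 12.9 to 25.09 times the level of *Itgax*, and *Cx3cr1* was 2.29 to 8.50 times that of *Clec7a*. The ratio of the medians of the lists was 0.244 by merged exons and 0.923 by principal transcripts, so the size of the gap between the lists rested on the length.

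A list of 21 other genes of the disease-associated state had a median of 401 per kilobase. It ran from 6.57 for *Lilrb4a*, an inhibitory receptor gene, to 31152 for *Fth1*, the gene of the ferritin heavy chain, which most cells use. Of its chemokine genes, *Ccl4* had 21.3, *Ccl6* 42.8 and *Ccl3* 45.5 per kilobase, and the surface glycoprotein gene *Cd52* had 61.4. The lysosomal protein gene *Cd68* had 215 and the lysozyme gene *Lyz2* 401 per kilobase. The list also holds *Apoe*, with 15399 per kilobase, whose product astrocytes secrete. The share of microglia in the levels of the list was not tested.

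Markers of other immune cells differed widely in level, and *S100a9* and *Flt3* were above the median gene by merged exons. The 6 border macrophage markers had a median of 11.4 per kilobase, from 4.65 for *Lyve1* to 15.2 for *Cbr2*, and all 10 marker genes exceeded them by merged exons, *Itgax* by the least. By coding length 9 of the 10 did, since *Itgax* fell below *Pf4*, the highest of the 6 with that length. The 8 T and B cell markers had a median of 0.685 per kilobase, with *Cd8a* the lowest at 0.360 and *Cd79a* the highest at 7.30. The 6 monocyte and neutrophil markers had a median of 2.09, from 0.616 for *Ly6g* to 118 for *S100a9*. The 5 dendritic cell markers, which bear on *Itgax* because dendritic cells also make CD11c, had a median of 3.04 per kilobase, that of *Clec9a*. *Xcr1* was at 0.177 per kilobase and *Cd209a* at 0.445, whereas *Zbtb46* had 13.4 and *Flt3* had 124. The share of each cell type in the level of a marker gene was not tested.

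Among markers of the tissue's other cells, the median was 9637 per kilobase for 6 oligodendrocyte markers, from 3138 for *Mog* to 37739 for *Mbp*, and 1651 for 6 astrocyte markers, from 431 for *Aldh1l1* to 13345 for *Gfap*. It was 1588 for 5 neuronal markers, from 601 for *Rbfox3* to 8695 for *Snap25*. Motor neuron markers had a median of 283, from 11.5 for *Isl1* to 712 for *Prph*. *Mnx1*, with 16.6 per kilobase, was like *Isl1* below the median gene of 63.5. The median was 106 for 5 endothelial markers, from 95.6 for *Tek* to 501 for *Cldn5*, and 216 for 4 markers of oligodendrocyte precursors, from 63.3 for *Cspg4* to 316 for *Gpr17*. Neuronal, motor neuron and glial markers were thus detected. Whether the levels tell spinal cord from other nervous tissue was not tested. The list of 5 peripheral nerve markers ran from 11.5 per kilobase for *Egr2* to 5676 for *Mal*, which oligodendrocytes also express. Of tissue outside the nervous system, the muscle gene *Acta1* had 163 and the liver gene *Alb* 20.0 per kilobase, and the globin genes *Hba-a1* and *Hbb-bs* were listed at 0. Only unique reads were counted, so a value of 0 need not mean that the globin transcripts were absent.

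**Figure D3:**
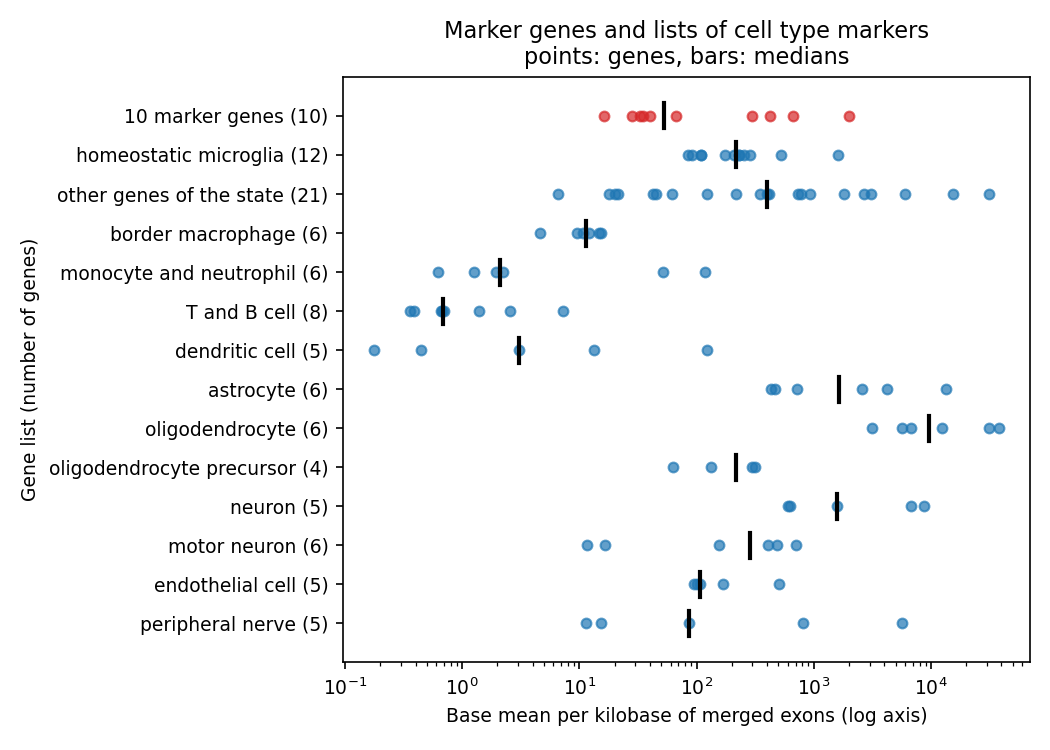
Base mean per kilobase of merged exons (log axis), pooled over 10 libraries, with 1 point for each gene and a black bar at the median of each list; the number of genes is in brackets. The 10 marker genes (red, median 53.1) spread from 16.3 to 2002 and overlap with several lists, while the 6 border macrophage markers (median 11.4) lie to the left of all 10.

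By position, the 10 marker genes lay on 7 chromosomes of GRCm38. *Tyrobp* (30413760 to 30417585), *Axl* (25757273 to 25788705) and *Itgax* (128129547 to 128150657) are on chromosome 7. *Clec7a* (129461591 to 129472779) and *Gpnmb* (49036546 to 49070929) are on chromosome 6. *Trem2* lies on chromosome 17 (48346401 to 48354147), in the neighbourhood of its relatives *Treml1* and *Treml2*, which had 1.60 and 2.92 per kilobase. *Spp1* lies on chromosome 5 (104435118 to 104441050), *Csf1* on chromosome 3 (107741048 to 107760469), *Lpl* on chromosome 8 (68880491 to 68907448) and *Cst7* on chromosome 2 (150570415 to 150578944). An annotated gene overlapped the exons of *Spp1* on the same strand over 309 bases, or 18.8% of its merged exons, and had no entry in the table. The exons of the other 9 marker genes overlapped those of no other annotated gene.

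RefSeq promoters of GRCm38.p6, from 250 bases before to 50 bases after the start of the gene, were matched for 8 of the 10 marker genes, 10 promoters in all, and *Tyrobp* and *Lpl* were not matched. Printed here, because they mark the ends of the order of levels and the receptor of the pathway, are the promoters of *Spp1*, *Trem2* and *Itgax*, 5′ to 3′ on the strand of the gene, from chr5:104434861-104435160 for the first start of *Spp1*, chr17:48346151-48346450 for *Trem2* and chr7:128129300-128129599 for *Itgax*. Capitals mark the motifs searched on both strands. Among them were GAGGAA (the core bound by PU.1, the factor that sets myeloid identity) and TGANTCA (AP-1, with N any letter). The others were TATAAA (the TATA box), CACGTG (the E-box of Tfeb and Mitf) and CCAAT.
Spp1: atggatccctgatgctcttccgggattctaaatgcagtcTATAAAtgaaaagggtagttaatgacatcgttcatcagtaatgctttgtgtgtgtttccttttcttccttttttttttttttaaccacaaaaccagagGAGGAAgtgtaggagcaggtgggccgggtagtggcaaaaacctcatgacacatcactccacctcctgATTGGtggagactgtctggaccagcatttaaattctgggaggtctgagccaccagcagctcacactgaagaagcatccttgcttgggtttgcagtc
Trem2: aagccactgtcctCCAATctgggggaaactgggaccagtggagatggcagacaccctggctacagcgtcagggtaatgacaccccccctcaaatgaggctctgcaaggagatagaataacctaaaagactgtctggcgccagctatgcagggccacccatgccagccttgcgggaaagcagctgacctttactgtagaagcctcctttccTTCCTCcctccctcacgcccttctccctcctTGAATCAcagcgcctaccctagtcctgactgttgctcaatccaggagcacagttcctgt
Itgax: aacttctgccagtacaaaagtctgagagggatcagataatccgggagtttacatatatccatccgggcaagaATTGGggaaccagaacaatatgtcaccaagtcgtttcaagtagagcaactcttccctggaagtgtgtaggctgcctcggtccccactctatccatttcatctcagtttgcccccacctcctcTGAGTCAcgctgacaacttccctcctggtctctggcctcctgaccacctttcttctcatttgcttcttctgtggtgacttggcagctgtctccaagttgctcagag

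In the *Spp1* promoter printed, the PU.1 core began 113 bases before the start and the TATA letters 211 bases before it. The promoter of the second start of *Spp1* held none of the motifs searched. The *Trem2* promoter held the PU.1 core on the opposite strand 40 bases before the start. At 9 bases before the start it held TGAATCA, which matches the letters searched but lacks the C or G in the middle of the usual AP-1 site. The *Itgax* promoter held an AP-1 match 56 bases before the start and no PU.1 core in these letters. The PU.1 core was found for 4 of the 8 marker genes, *Spp1*, *Trem2*, *Clec7a* and *Axl*, and in 28.3% of the 32851 promoters of the table. The AP-1 letters were found for 4 of the 8, *Trem2*, *Itgax*, *Cst7* and *Gpnmb*, and in 7.81% of all promoters. Both values allow any middle letter and so are wider than the usual AP-1 site. The E-box was found for 0 of the 8 and in 7.15% of all promoters, the TATA letters for 2 of the 8 and in 13.6%, and CCAAT for 4 of the 8 and in 37.4%. A gene with 2 promoters was counted if either held the motif, whereas the shares are of single promoters. Of the 10 promoters of the marker genes, 5 held the PU.1 core, 4 the AP-1 letters, 0 the E-box, 2 the TATA letters and 5 CCAAT. These matches describe letters in a window, and binding was not measured.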

How the data were processed

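RNA of 10 mouse spinal cords was sequenced by the authors as stranded, paired reads, which were trimmed with Fastp, aligned to mm10 with HISAT2 (2.1.0 in the submitters' processing notes) and counted on genes with featureCounts (2.0.2), unique reads only. The gene annotation and the strand setting are not given in the sources used here. The deposited table gives 1 signal for each gene, the base mean, made by the authors with DESeq2 from counts divided by size factors and averaged over all libraries. Its 5 other value columns hold the authors' fold change between genotypes, its standard error, the statistic and the p-values, and none was used. No library has a value of its own, so no test, spread, interval or floor was computed, and depth per library is unknown.

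Groups were taken from the labels (5 mice each). Base means were divided by lengths from GENCODE M21, whose GRCm38 build mm10 denotes. A symbol given to several genes had no length, and 24312 of 25232 symbols (96.4%) matched. A percentile is the share of genes with a lower level. The alternatives were other lengths, no length, other sets of genes ranked, another summary and fewer markers. The genes named were the 10 markers, the highest and lowest gene of each list, genes listed at 0 and direct partners. Some genes that this rule covers are not reported here. *Clec1a*, *Olr1*, *Treml1* and *Treml2* were added as neighbours, and further list genes as examples, after their values were seen. The markers and lists were chosen with earlier results of these data known. The computations were tested on simulated data. Python 3.11.15, numpy 2.4.6, pandas 2.3.3 and matplotlib 3.10.9 were used.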

Additional observations from a re-analysis of the deposited data

How the results depend on the processing

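No paired analysis was possible because the table holds no values of single libraries, and no mouse could be left out for the same reason. Of the 10 places in the order of the marker genes by merged exons, 5 were kept by the longest transcript, 4 by the coding length, 8 by the principal transcript (chosen after the data were seen) and 1 with no length correction. The median percentile of the marker genes was 46.7 among genes above 0, 55.4 among all listed genes with a length, 30.9 once genes under a base mean of 10 were dropped and 55.4 with no length correction. The ratio of their median to that of the homeostatic markers was 0.244, and it was 0.504 by means of log2 values, 0.555 with no length correction, 0.676 by coding length and 0.923 by principal transcript, staying under 1 in all of these. Without *Spp1*, *Csf1*, *Lpl* and *Axl*, which other cells also express, it was 0.167. The ratio of *Tyrobp* to *Trem2* was 9.97 by merged exons, 10.8 by the longest transcript, 2.12 by coding length, 2.59 by principal transcript and 1.34 with no length correction. Differences between the genotypes and the depth behind each level were not analysed here.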
